A study of Arabidopsis thaliana with 64 samples.

Results

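The genes described here are the nuclear genes for the photosystems and their light harvesting antennae in Arabidopsis thaliana seedlings grown in the dark. The set holds 40 of the 32833 loci in the deposited count tables. It was chosen by gene name and locus, not by a rule on expression, but with earlier results of these data known. It holds the genes of the photosystem I antenna (LHCA1 to LHCA4), those of the photosystem II antenna (the LHCB1 to LHCB6 families), and the nuclear PSA and PSB subunit genes of photosystems I and II. By role, 4 loci were LHCA, 14 LHCB, 12 PSA and 10 PSB genes. All 40 had a row in every table, and 39 had enough reads to be tested. The remaining locus, LHCB1.5, is discussed with the levels.

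The study asked whether induction of a transcription factor changes the expression of metabolic genes in heterotrophic seedlings. Every plant was in the Col-0 background and carried 1 of 4 factors fused to the glucocorticoid receptor (GR) under the 35S promoter, which is active in most cell types. The fusions were GR-CHA19 (a chromatin remodeler), GR-ENAP1, GR-LBD16 and GR-WRI3, with 4 independent insertion lines each: lines 5, 7, 8 and 9 of GR-CHA19, lines 1, 2, 4 and 5 of GR-ENAP1, lines 3, 8, 11 and 12 of GR-LBD16, and lines 8, 10, 17 and 21 of GR-WRI3. T3 seeds were germinated for 5 days in the dark. Seedlings were then moved for 24 h, still in the dark, to plates with 10 µM dexamethasone (Dex) or to mock plates. Dex lets the fusion enter the nucleus. Per the study's methods, a green headlamp was used during the transfer. For each line and treatment, 2 plates of pooled whole seedlings were sequenced, which gave 64 libraries of polyadenylated RNA: 32 mock and 32 Dex, 16 of each fusion. No line without a GR fusion was sequenced with these, so a response to Dex alone and a response to the factor cannot be told apart.

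In plant cells the photosystems sit in the thylakoid membranes of the plastid and are assembled from proteins encoded in both the plastid and the nucleus. Chlorophyll binding LHCA and LHCB proteins collect light and pass the energy to the reaction centres, PSA and PSB subunits surround those centres and bind the electron carriers, and the lumenal PSBO, PSBP and PSBQ proteins stabilise the site where water is split. The nuclear genes are known for their strong and joint induction by light through phytochrome and the GLK regulators; in the dark the plastids of a seedling are etioplasts, which hold protochlorophyllide and its light dependent reductase PORA in place of stacked thylakoids.

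Total counts per library ranged from 2059928 to 7968970 with a median of 5292625. As a check of the labels, the locus of each fused factor had a higher level in its own lines than in every other library: the CHA19 locus was at 103 to 218 counts scaled to a library total of 1000000 (CPM) in the 16 GR-CHA19 libraries and at 50.4 to 79.7 in the other 48, ENAP1 at 127 to 564 against 25.4 to 110.2, LBD16 at 56.4 to 484.5 against 8.38 to 18.4, and WRI3 at 33.9 to 206 against 0.205 to 2.36. Markers of root cells, a tissue that whole seedlings contain, were present in all 64 libraries at a summed level of 626 to 4034 CPM. Over 18616 genes outside the 40, the median absolute log2 deviation of a library from the median of the 16 libraries of its fusion (pseudocount 0.5 CPM) was 0.111 to 0.342 in 59 libraries and 0.460 to 0.823 in 5, with a limit of 0.4 set after seeing the data. The libraries that stood apart were GR-CHA19 line 7 Dex replicate 1, GR-ENAP1 line 1 mock replicate 1, GR-ENAP1 line 2 Dex replicate 1, GR-LBD16 line 3 mock replicate 1 and GR-WRI3 line 8 Dex replicate 1, and their total counts of 5488451 to 7571782 were not low. Levels are therefore given over the other 59 libraries, and results of tests are given with and without these libraries where they rest on them.

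The photosystem and antenna genes were strongly expressed in these dark-grown seedlings. Together they took 1.57 to 3.91% of all counts in the 59 libraries, with a median of 2.71%, or 15709 to 39147 CPM. The LHCB genes made up the largest summed level, with a median of 13114 CPM (6331 to 20216), followed by the PSB genes at 5466 CPM (3679 to 7239), the LHCA genes at 4322 CPM (2674 to 6380) and the PSA genes at 3922 CPM (2681 to 5456). In all 64 libraries the summed level ran from 515 to 39147 CPM with a median of 25402. In bulk libraries, fewer expressing cells and less RNA per cell cannot be told apart.

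**Figure D1:**
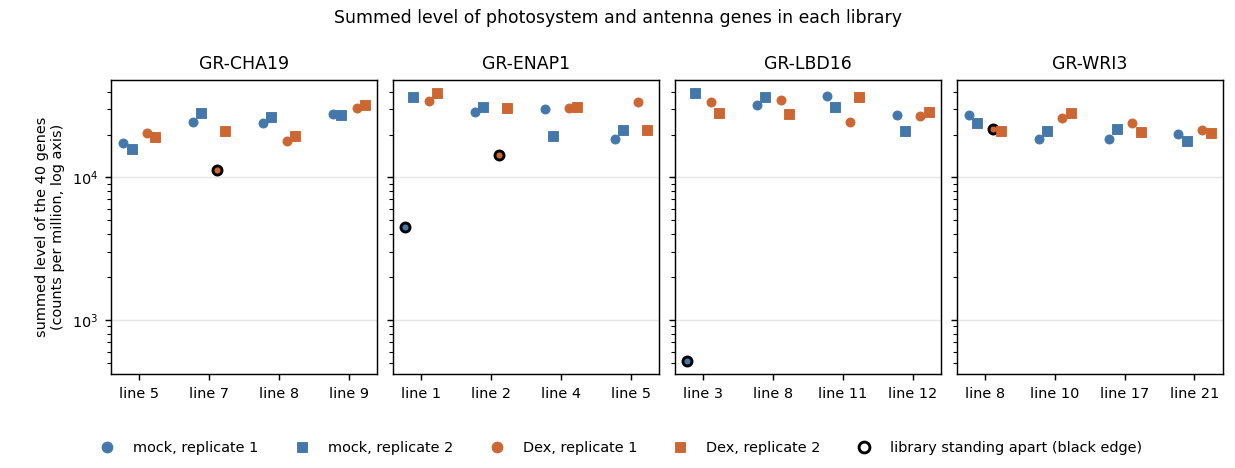
Summed level of the 40 genes in each of the 64 libraries (CPM), by GR fusion, line and treatment, with the libraries that stood apart marked. In 59 libraries the sum lay between 15709 and 39147 CPM, and the lowest, GR-LBD16 line 3 mock replicate 1, was at 515 CPM.

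To compare genes with each other, levels were divided by exon length (CPM per kb). Among the photosystem I antenna genes, LHCA4 (AT3G47470) and LHCA2 (AT3G61470) had similar levels, 1010.2 ± 284 and 1003 ± 183 CPM per kb (mean ± SD, n = 59 libraries). LHCA3 (AT1G61520), at 545 ± 115, and LHCA1 (AT3G54890), at 524 ± 130, were close to each other and lower. The 4 LHCA proteins bind to photosystem I as a belt on one side of the core.

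LHCB1.3 (AT1G29930), which encodes a protein of the major trimeric antenna of photosystem II, was the highest of the 40 at 4580.3 ± 1715 CPM per kb and ranked 3 among all genes. LHCB1.4 (AT2G34430), a second gene of that family, was at 1465 ± 431 (rank 16). LHCB5 (AT4G10340), which encodes a minor antenna protein that occurs as a monomer, was at 857 ± 208. Members of the same families were also among the lowest: LHCB2.3 (AT3G27690) was at 47.6 ± 20.4 and LHCB4.3 (AT2G40100), a copy of the minor antenna gene LHCB4, at 4.67 ± 1.01 CPM per kb. The level of LHCB1.5 (AT2G34420) is unknown, since its exons lie wholly within those of the gene model AT2G08665 and both loci had 0 counts in all 64 libraries, so its reads may not have been assigned to either.

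Among photosystem I subunits the highest were PSAL (AT4G12800), which takes part in binding mobile antenna, at 635 ± 122 CPM per kb, PSAF (AT1G31330), which docks plastocyanin, at 623 ± 123, and PSAK (AT1G30380), which helps to hold the antenna, at 452 ± 124. The lowest were PSAE1 (AT4G28750), a stromal subunit at the ferredoxin site, at 153 ± 46.7, and the PSAH copies PSAH1 (AT3G16140), at 123 ± 27.2, and PSAH2 (AT1G52230), at 95.3 ± 45.7. Among photosystem II subunits PSBR (AT1G79040) was at 1412 ± 229.7 CPM per kb, PSBO1 (AT5G66570) at 1007 ± 162 and PSBP1 (AT1G06680) at 733 ± 139.6. The latter pair belong to the oxygen evolving complex. The lowest were the small subunit PSBY (AT1G67740) at 175 ± 28.5, PSBO2 (AT3G50820) at 89.0 ± 18.2, and PSBS (AT1G44575), the protein that triggers energy dissipation in excess light, at 66.3 ± 31.0.

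**Figure D2:**
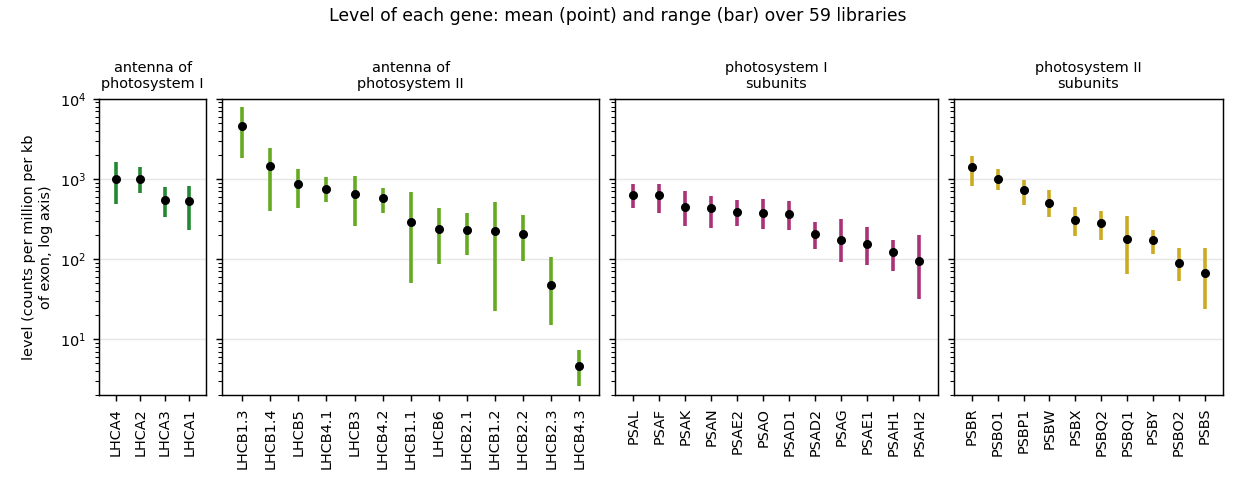
Level per exon length (CPM per kb, log axis) of each gene by role, with the mean and range over 59 libraries. LHCB1.3 is the highest at 4580.3 and LHCB4.3 the lowest of those with counts at 4.67; LHCB1.5 had 0 counts and is not on the axis.

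The genes did not vary alike. Over 59 libraries the SD of log2 CPM had a median of 0.34 over the 40 genes, beside 0.314 over the other genes with a mean of at least 1 CPM. The medians over the 40 include LHCB1.5, with 0 counts and so an SD of 0, which the rankings leave out. The most variable were LHCB1.2 (AT1G29910; SD 1.15), LHCB1.1 (AT1G29920; 0.864) and PSBQ1 (AT4G21280; 0.756), and the least variable LHCB4.1 (0.228), PSBO1 (0.234) and PSAE2 (0.235). LHCB1.2 ran from 27.5 to 634 CPM, while LHCB4.1, a minor antenna gene, ran from 718 to 1477. With all 64 libraries the median SD was 0.884 for the 40 genes and 0.397 for the others; the most variable were then LHCB1.4 (1.66), LHCB1.2 (1.48) and LHCB1.1 (1.43), and the least variable LHCB4.3 (0.368), PSBY (0.406) and PSBX (0.511).

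Several subunits are encoded by a pair of genes, and the balance of some pairs was steady while that of others moved. Per exon length PSAD1 was above PSAD2 in 59 of 59 libraries, by 1.23- to 2.1-fold. PSBO1 was 8.79 to 14.3 times PSBO2 in the same libraries, and PSAE1 was 0.228 to 0.596 times PSAE2. The PSAH1 to PSAH2 ratio ran from 0.626 to 2.73, the PSBQ1 to PSBQ2 ratio from 0.269 to 1.76, and the LHCB1.1 to LHCB1.2 ratio from 0.530 to 3.14. In the GR-LBD16 line 3 mock replicate 1 library, PSBQ1 was 26.1 times PSBQ2 and PSBO1 only 2.64 times PSBO2. The counting could not always separate near copies or overlapping loci: 14 genes share stretches of 100 bases with another counted locus, PSAG for 55.8% of such windows, PSAH1 for 47.0%, LHCB2.3 for 36.3% and PSAE1 for 24.0%, and counting did not use strand, so their levels are uncertain.

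In 4 of the 5 libraries that stood apart the photosystem genes were lower than on the other plate of the same line and treatment, to very different degrees. Between partner plates that held none of these libraries (27 pairs), the summed level differed by 1.01- to 1.58-fold with a median of 1.13. With them, the pairs differed by 75.6-fold (GR-LBD16 line 3 mock), 8.06-fold (GR-ENAP1 line 1 mock), 2.17-fold (GR-ENAP1 line 2 Dex), 1.89-fold (GR-CHA19 line 7 Dex) and 1.04-fold (GR-WRI3 line 8 Dex). These comparisons are of 1 library with 1 library and have no test.

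In GR-LBD16 line 3 mock replicate 1, the sum was 515 CPM against 38929 on the other plate, and 39 of 39 genes with counts were lower, by a median of 112-fold. Beside this, 8528 of all 18888 genes compared were lower in that library, and 21.1% of the 18888 were lower by more than 2-fold. The antenna genes had the larger ratios, with a median of 193-fold for LHCB and 125-fold for LHCA genes, beside 104-fold for PSA and 28.2-fold for PSB genes. LHCB1.3 was at 48.3 CPM against 9331, LHCB1.2 at 1.61 against 517, and PSBQ2, usually the more abundant PSBQ copy, at 2.09 against 506. Its paralog PSBQ1 was at 42.7 CPM against 293, a ratio of 6.86, and the smallest ratio was that of LHCB4.3, at 2.73 against 5.70 CPM (2.09-fold). Rubisco small subunit genes were also lower in this library, at 1017 CPM against 6209, and so were plastid-encoded photosystem subunits, at 156 against 985. PORA, which is repressed by light, was lower as well, at 78.7 against 694 CPM. Root markers were at 1670 against 1702 CPM, and seed storage genes were higher, at 679 against 15.2 CPM.

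In GR-ENAP1 line 1 mock replicate 1, 37 of 39 genes were lower than on the other plate, by a median of 7.16-fold. Beside this, 7286 of all 18960 genes compared were lower, and 14.4% of the 18960 by more than 2-fold. LHCB1.4 was at 4.75 CPM against 3174, while PSBQ1, at 180.7 against 179 CPM, and PSBS, at 144 against 135, had nearly equal levels on both plates. PORA was at 1056 CPM against 177 and root markers at 3998 against 925. In GR-ENAP1 line 2 Dex replicate 1, 37 of 39 were lower by a median of 1.98-fold, beside 7791 of all 18985 genes. Of the 18985, 3.59% were lower by more than 2-fold. PORA was at 1469 against 672 CPM in that pair.

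In GR-CHA19 line 7 Dex replicate 1, 31 of 39 were lower, by a median of 1.61-fold over the 39. Beside this, 7546 of all 18962 genes were lower, and 14.0% of the 18962 by more than 2-fold. LHCB1.4 was at 32.2 CPM against 1990.1 there, but PSBQ1 was at 303 against 90.7, PSBS at 279 against 67.7 and PSAH2 at 70.3 against 32.4, so these were higher on the plate where the set as a whole was lower. PORA was at 1932 CPM against 47.4 and root markers at 4034 against 939 in that pair. GR-WRI3 line 8 Dex replicate 1 showed no such shift, with 18 of 39 lower, beside 7874 of all 18804 genes. PORA was still at 1322 CPM against 301 in that pair. Rubisco small subunit genes were at 6727 CPM against 2143 in GR-CHA19 line 7 Dex replicate 1. They were at 6853 against 6146 in GR-ENAP1 line 2 Dex replicate 1 and 5984 against 3329 in GR-WRI3 line 8 Dex replicate 1. In GR-ENAP1 line 1 mock replicate 1 they were at 3784 against 4072. Plastid-encoded photosystem subunits were at 563 against 396, 638 against 1069, 1247 against 803 and 322 against 818 in the same order. The part of seedling composition in these differences was not tested.

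**Figure D3:**
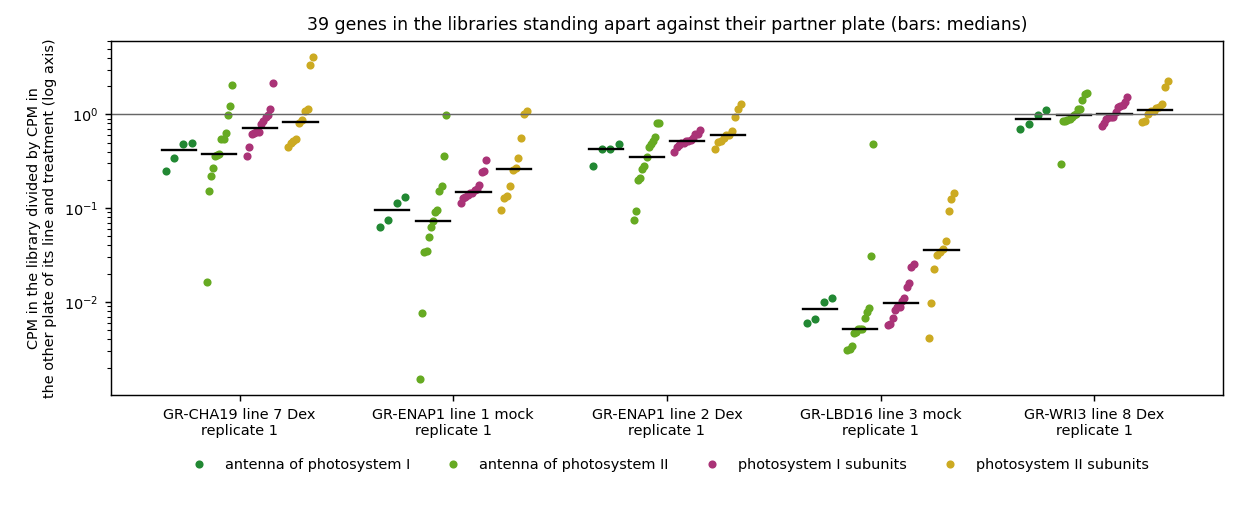
Ratio of CPM in each library that stood apart to CPM on the other plate of the same line and treatment, per gene and role (log axis, below 1 is lower). All 39 genes lie below 1 in GR-LBD16 line 3 mock replicate 1, and 18 of 39 in GR-WRI3 line 8 Dex replicate 1.

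Under mock treatment the GR-LBD16 lines had the highest levels of a small group of the genes and the GR-CHA19 and GR-WRI3 lines the lowest. Whether levels differed between the 4 fusions was tested on the sum of both mock plates of each line, with 4 lines a fusion and edgeR's quasi-likelihood F-test over all genes. Of 39 genes tested, 5 passed an adjusted p of 0.05, beside 38.4% of all 19303 genes. At an unadjusted p under 0.05 there were 6 of 39, beside 9504 of the 19303. Both counts of photosystem genes were below that background. The 5 were LHCB1.2, LHCB6 (AT1G15820, a minor antenna protein), PSAH2, PSBQ1 and PSBS. These are also among the 7 genes with the largest SD over 59 libraries, together with LHCB1.1 and LHCB2.3. That SD spans the fusions and most libraries of this test, so the overlap is not a separate result.

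To show these genes and their close relatives, the 250 bases upstream of the annotated gene start are given 5′ to 3′ from RefSeq (TAIR10.1) for the 5 that passed and for LHCB1.1 and PSBQ2, copies that did not pass. Capitals mark 3 motifs found on either strand: the G-box (CACGTG, also its own reverse complement), the I-box (GATAAG, or CTTATC on the other strand) and the CCAAT box (CCAAT or ATTGG). LHCB1.2, LHCB1.1 and LHCB1.3 are neighbours on chromosome 1.
LHCB1.2 upstream, chr1:10473503-10473752, minus strand: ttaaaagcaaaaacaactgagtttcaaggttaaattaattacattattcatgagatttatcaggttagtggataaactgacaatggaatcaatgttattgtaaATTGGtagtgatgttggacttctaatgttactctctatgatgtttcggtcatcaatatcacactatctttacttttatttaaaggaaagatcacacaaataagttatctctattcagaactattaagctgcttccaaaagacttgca
LHCB1.1 upstream, chr1:10475970-10476219, minus strand: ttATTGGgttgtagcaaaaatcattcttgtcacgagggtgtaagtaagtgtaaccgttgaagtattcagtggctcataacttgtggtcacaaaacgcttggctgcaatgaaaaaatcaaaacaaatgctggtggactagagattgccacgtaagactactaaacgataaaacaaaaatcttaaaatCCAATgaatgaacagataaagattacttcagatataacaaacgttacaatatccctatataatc
LHCB6 upstream, chr1:5447881-5448130, minus strand: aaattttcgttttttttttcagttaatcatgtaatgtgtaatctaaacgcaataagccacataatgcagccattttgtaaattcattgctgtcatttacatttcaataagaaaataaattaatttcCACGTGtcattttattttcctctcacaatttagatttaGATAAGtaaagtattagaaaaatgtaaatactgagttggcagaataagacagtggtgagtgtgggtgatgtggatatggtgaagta
PSAH2 upstream, chr1:19454548-19454797, plus strand: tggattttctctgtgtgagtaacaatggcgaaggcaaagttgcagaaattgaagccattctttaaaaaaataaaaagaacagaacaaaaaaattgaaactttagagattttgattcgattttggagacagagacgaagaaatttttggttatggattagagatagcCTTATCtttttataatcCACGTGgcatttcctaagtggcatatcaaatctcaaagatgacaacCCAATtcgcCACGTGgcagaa
PSBQ1 upstream, chr4:11334102-11334351, plus strand: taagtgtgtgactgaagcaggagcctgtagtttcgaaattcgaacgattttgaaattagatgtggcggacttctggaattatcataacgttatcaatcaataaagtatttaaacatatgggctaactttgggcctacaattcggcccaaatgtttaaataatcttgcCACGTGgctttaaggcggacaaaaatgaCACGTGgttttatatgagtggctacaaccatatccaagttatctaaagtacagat
PSBQ2 upstream, chr4:2673244-2673493, minus strand: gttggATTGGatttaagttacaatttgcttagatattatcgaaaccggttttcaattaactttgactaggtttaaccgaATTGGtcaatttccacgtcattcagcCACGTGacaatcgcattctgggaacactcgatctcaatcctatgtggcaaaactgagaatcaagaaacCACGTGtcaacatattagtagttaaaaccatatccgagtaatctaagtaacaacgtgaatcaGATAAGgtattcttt
PSBS upstream, chr1:16869971-16870220, plus strand: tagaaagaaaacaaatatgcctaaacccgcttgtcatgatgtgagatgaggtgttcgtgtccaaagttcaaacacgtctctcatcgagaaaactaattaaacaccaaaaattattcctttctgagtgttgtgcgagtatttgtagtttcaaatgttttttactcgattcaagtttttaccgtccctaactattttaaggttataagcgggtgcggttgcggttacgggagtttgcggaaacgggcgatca

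The G-box, a site bound in light signalling by bZIP and bHLH factors, was in 4 of these windows (LHCB6, PSAH2, PSBQ1 and PSBQ2), and the PSBS window held none of the 3 motifs. Over the 40 genes, 8 windows (20.0%) held a G-box, beside 6.5% of 27443 protein-coding genes, and 9 (22.5%) held an I-box, beside 12.3%. The CCAAT box was in 26 of 40 (65.0%), beside 46.0% of all, and its share differed by role: 4 of 4 LHCA and 13 of 14 LHCB windows held it, and 7 of 12 PSA and 2 of 10 PSB windows. A match is a run of letters and does not show that a factor binds there.

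LHCB1.2 had the widest range between fusions, 1.75 on the log2 scale (edgeR adjusted p = 0.0379). Its mock level, as the mean of both plates, was 37.3, 149.8, 106 and 133 CPM in GR-CHA19 lines 5, 7, 8 and 9, and 254, 124, 75.4 and 53.9 CPM in GR-WRI3 lines 8, 10, 17 and 21. It was 179, 416, 325 and 152 CPM in GR-ENAP1 lines 1, 2, 4 and 5, and 259, 499.7, 499 and 361 CPM in GR-LBD16 lines 3, 8, 11 and 12. The means were 106 ± 49.5, 127 ± 89.9, 268 ± 125 and 405 ± 117 CPM in the order GR-CHA19, GR-WRI3, GR-ENAP1 and GR-LBD16 (SD, n = 4 lines). As means of both plates, every GR-LBD16 line lay above every GR-CHA19 and GR-WRI3 line. Line 3 of GR-LBD16 did so only as an average, since its replicate 1, which stood apart, was at 1.61 CPM. The GR-ENAP1 lines overlapped with the GR-LBD16 and GR-WRI3 lines and lay just above the GR-CHA19 lines.

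PSBQ1, a lumenal subunit of the oxygen evolving complex, had a range of 1.2 (adjusted p = 0.0187). It was at 70.6, 103, 96.7 and 122 CPM in the GR-CHA19 lines and 196, 107, 72.7 and 68.6 in the GR-WRI3 lines. It was at 179.9, 256, 204 and 112 CPM in the GR-ENAP1 lines and 168, 298, 277 and 305 in the GR-LBD16 lines. The line means of GR-LBD16 and GR-CHA19 did not overlap, and 1 GR-WRI3 line (line 8) lay above the lowest GR-LBD16 line (line 3). That line 3 mean includes the library that stood apart, where PSBQ1 was at 42.7 CPM. The ratio of PSBQ1 to PSBQ2 moved with the PSBQ1 level. Its median over mock plates was 0.330 in GR-CHA19, 0.382 in GR-WRI3, 0.660 in GR-ENAP1 and 0.864 in GR-LBD16.

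PSBS had a range of 1.17 (adjusted p = 0.0176), with 51.0, 81.7, 77.2 and 92.1 CPM in the GR-CHA19 lines and 109, 59.5, 62.0 and 56.7 in the GR-WRI3 lines. It was at 139, 169, 124 and 71.4 CPM in the GR-ENAP1 lines and 99.9, 229.9, 191 and 212 in the GR-LBD16 lines. As for PSBQ1, the lowest GR-LBD16 line was line 3, which includes the library that stood apart, and it lay below GR-WRI3 line 8.

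PSAH2, a photosystem I subunit on the side where mobile antenna docks, had a range of 1.12 (adjusted p = 0.0127). Its level was 28.3, 46.0, 36.8 and 43.5 CPM in the GR-CHA19 lines and 63.0, 39.2, 34.3 and 26.8 in the GR-WRI3 lines. It was 57.7, 81.0, 81.9 and 41.7 CPM in the GR-ENAP1 lines and 70.5, 111, 107 and 100.1 in the GR-LBD16 lines, which lay above all GR-CHA19 and GR-WRI3 lines. LHCB6 had a range of 1.03 (adjusted p = 0.0244), with means of 169.8 ± 43.0 CPM in GR-CHA19, 171 ± 59.7 in GR-WRI3, 299 ± 83.2 in GR-ENAP1 and 391 ± 89.4 in GR-LBD16 (SD, n = 4 lines). Its GR-LBD16 lines, at 261 to 458 CPM, were again above its GR-CHA19 lines, at 110.0 to 201, and its GR-WRI3 lines, at 118 to 255.

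**Figure D4:**
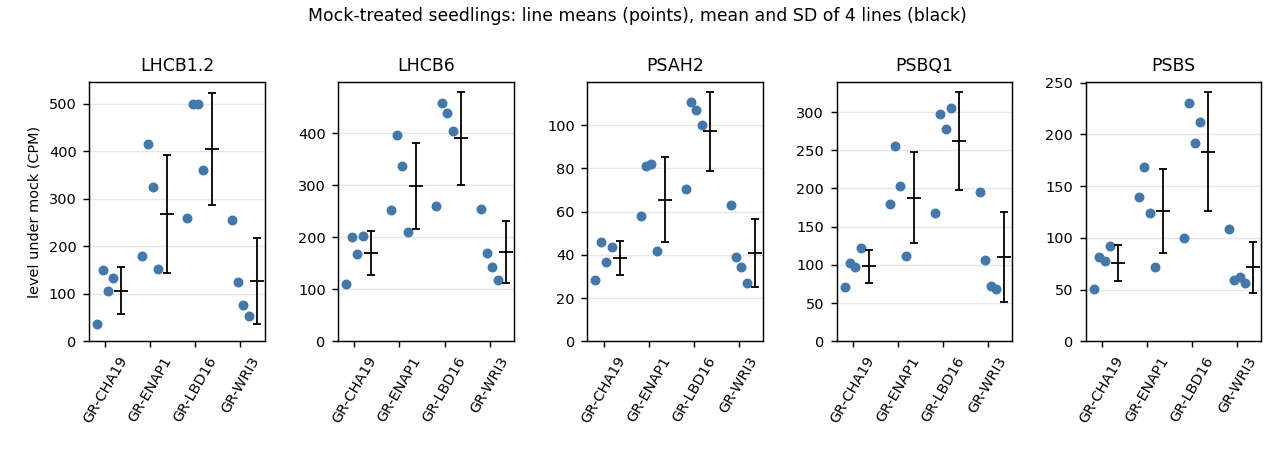
Mock levels (CPM, mean of both plates) of the 5 genes that passed the test between fusions, 1 point per line and the mean of the 4 lines as a bar. For LHCB1.2 the means run from 106 CPM in GR-CHA19 to 405 CPM in GR-LBD16.

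The calls rested on few libraries. Without GR-LBD16 line 3 mock replicate 2, none of the 39 passed (24.8% of 19276 genes did), line 3 being then represented by the library that stood apart alone. Without that library in its place (replicate 1), 9 passed (36.7% of 19185). Without GR-ENAP1 line 1 mock replicate 2, 3 passed (26.4% of 19314), LHCB6 and LHCB1.2 being lost at adjusted p = 0.0726 and 0.182, and LHCB1.2 was also lost without GR-LBD16 line 11 mock replicate 1 (0.0501) or line 12 mock replicate 1 (0.0597), and with no filter on low counts (0.0647), where the other 4 passed. Without both mock libraries that stood apart, 10 passed (44.7% of 19105): the 5 above and LHCB1.3, PSAG, PSBX, PSAD1 and PSAE1, with ranges of 1.04, 0.61, 0.57, 0.52 and 0.74. Whether the lines of the 4 fusions were grown side by side is not given in the sources used here, so a difference between growth sets and a difference between fusions cannot be told apart.

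Other transcripts differed between the fusions under mock treatment as well. PORA, a marker of the dark state, passed the same test with a range of 3.42 (adjusted p = 0.00584), with a median of 51.8 CPM in GR-CHA19 (32.7 to 101), 84.8 in GR-WRI3 (31.3 to 459), 364 in GR-ENAP1 (149.9 to 1056) and 744 in GR-LBD16 (78.7 to 1421). Root markers passed for 6 of 8 genes, beside the 38.4% of all genes, and their summed mock level was 707 to 1006 CPM in GR-CHA19, 649.7 to 1412 in GR-WRI3, 925 to 3998 in GR-ENAP1 and 1533 to 2892 in GR-LBD16. Seed storage genes passed for 2 of 8, below that share, at summed levels of 5.69 to 370.1, 5.41 to 116, 5.95 to 57.1 and 12.1 to 679 CPM in the same order. Their part in the photosystem gene result was not tested.

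Between insertion lines of the same fusion, LHCB1.2 in GR-WRI3 was the sole photosystem gene to pass under mock treatment. It had a range of 2.17 on the log2 scale (edgeR adjusted p = 0.0238) and was 1 of 7 genes called (0.0382% of 18311). The plates were at 284 and 225 CPM in line 8, 122 and 126 in line 10, 65.6 and 85.3 in line 17, and 61.0 and 46.8 in line 21, so that the plates of no line overlapped with those of another, although 65.6 and 61.0 CPM in lines 17 and 21 were close. It passed in 7 of the 16 fits that left out 1 library. It was lost without line 8 mock replicate 1 (adjusted p = 0.308) or 2 (0.0889), line 21 mock replicate 1 (0.11) or 2 (0.203), line 17 mock replicate 1 (0.0924) or 2 (0.0579), line 17 Dex replicate 1 (0.0684) or 2 (0.0694), and line 10 mock replicate 2 (0.0649). Without line 8 Dex replicate 1, 2 of the 39 passed (0.145% of 18679 genes).

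In GR-CHA19 none of the 39 passed between lines, as was so for all genes (0%). At an unadjusted p under 0.05 there were 9 of 39, beside 1.72% of all genes. The lowest p values were those of LHCB2.3, with a range of 1.37 (adjusted p = 0.706), LHCB1.2, with 2.0 (adjusted p = 1), and PSAE1, with 0.72. LHCB2.3 passed without line 7 Dex replicate 1 (0.0324% of 18538 genes) or replicate 2 (0.0259% of 19269). For GR-WRI3 the unadjusted count was 8 of 39, beside 5.63%. In GR-ENAP1 and GR-LBD16 none of the 39 passed, adjusted (0.0108% and 0.0321% of all genes) or unadjusted (9.11% and 6.89%). The lowest p values belonged to PSBQ1 (range 1.13, adjusted p = 0.533), LHCB4.3 (0.88, 0.554) and PSBS (1.18, 0.568) in GR-ENAP1, and to LHCB4.3 (0.70, 0.774), LHCB4.1 (1.33, 0.806) and PSBQ1 (0.80, 0.813) in GR-LBD16. These counts depend on the pair of plates with a library that stood apart: with replicate 1 as the sole mock plate of line 1, 35 of 39 passed in GR-ENAP1 (41.8% of 19153 genes), and with replicate 1 as the sole mock plate of line 3, 38 of 39 passed in GR-LBD16 (56.7% of 19442).

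In edgeR's quasi-likelihood test no photosystem gene passed an adjusted p of 0.05 under Dex in any of the 4 fusions; other tools and some fits without 1 library called some, as given for each fusion below. Their fitted values lay mostly on 1 side of 0 in each fusion: 39 of 39 had a log2 fold change above 0 in GR-ENAP1, 36 in GR-LBD16, 31 in GR-WRI3 and 6 in GR-CHA19, beside 45.6%, 48.5%, 51.5% and 52.3% of all genes. Their median log2 fold change was 0.29, 0.15, 0.09 and −0.20 in the same order. Single libraries set part of this: without line 3 mock replicate 1, 4 of 39 were above 0 in GR-LBD16 with a median of −0.10, and leaving out line 1 mock replicate 1 or 2 gave a GR-ENAP1 median of 0.09 or 0.875. Of all genes, 5 passed in GR-WRI3 (0.0273%) and none in GR-CHA19, GR-ENAP1 and GR-LBD16 (0% each). At an unadjusted p under 0.05 there were 7 of 39 for GR-WRI3 (15.5% of all genes), 2 for GR-CHA19 (14.0%), 0 for GR-ENAP1 (1.81%) and 0 for GR-LBD16 (6.31%). DESeq2 called none of the 39 in these fusions apart from LHCB1.2 in GR-WRI3.

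**Figure D5:**
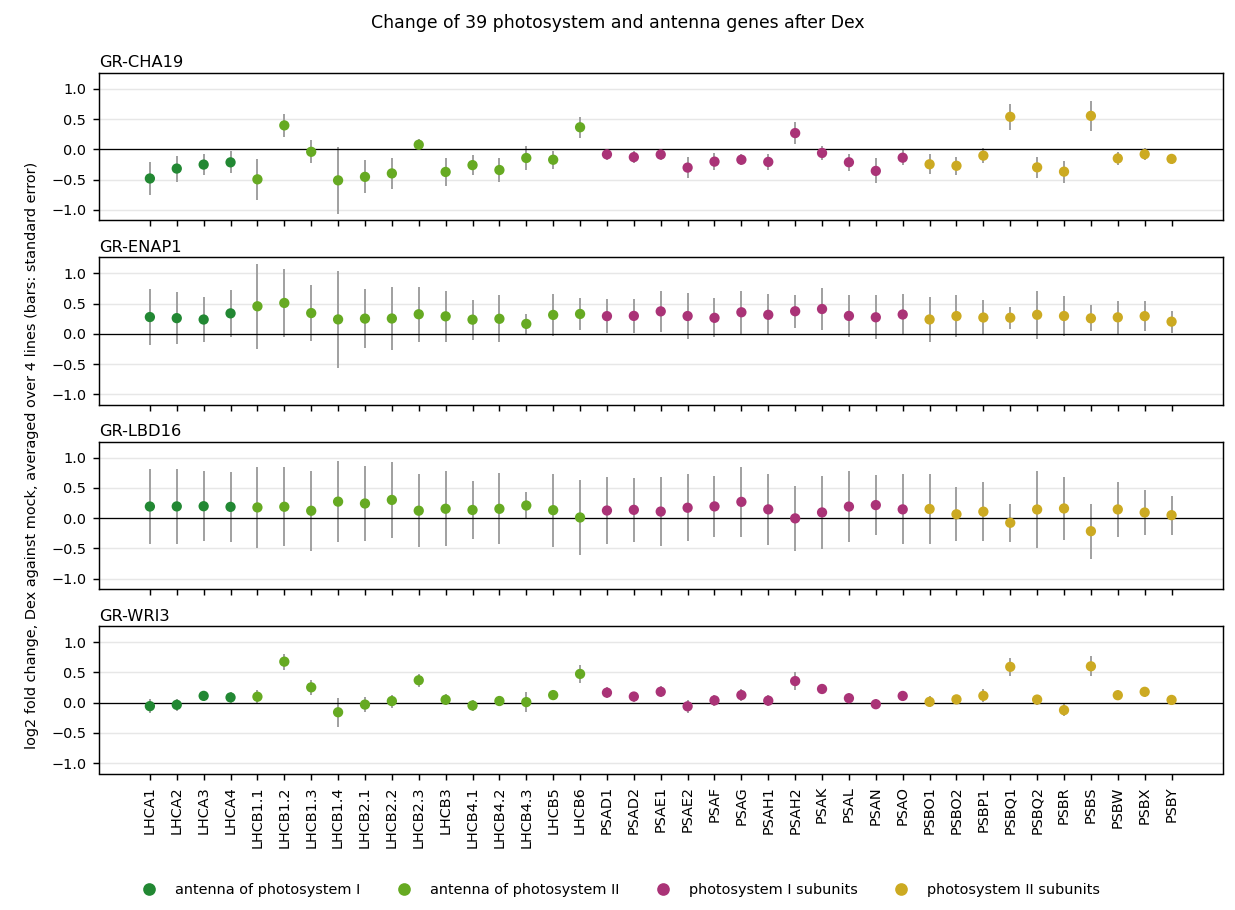
Log2 fold change of Dex against mock for each of the 39 tested genes in each fusion, by role, with the standard error of the edgeR fit. The points of GR-CHA19 lie below 0 for 33 genes, and those of GR-ENAP1 above 0 for all 39.

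In GR-WRI3 the genes with the lowest p values were LHCB1.2, PSBQ1 and PSBS. LHCB1.2 was at 46.8 to 284 CPM with a median of 104 under mock and at 85.8 to 404 with a median of 168 under Dex (n = 8 plates each). The groups overlap, but within each of the 4 lines the fold change was above 0, at 0.22, 1.27, 0.55 and 0.68 in lines 8, 10, 17 and 21. The fitted log2 fold change was 0.68 ± 0.13 (SE, edgeR adjusted p = 0.223). PSBQ1 was at 63.98 to 215 CPM (median 87.5) under mock and 74.5 to 344 (median 142) under Dex, with a log2 fold change of 0.59 ± 0.15 (edgeR adjusted p = 0.301). PSBS was at 51.4 to 122 CPM (median 61.8) under mock and 60.6 to 217 (median 91.3) under Dex, with a log2 fold change of 0.60 ± 0.17 (edgeR adjusted p = 0.301). For both, all 4 lines were above 0 and the groups overlap.

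The remaining genes of GR-WRI3 with an unadjusted p under 0.05 were LHCB6, LHCB2.3, PSAH2 and PSAK, with log2 fold changes of 0.47, 0.37, 0.36 and 0.23. Of these 7, LHCB1.2 passed with DESeq2 (0.105% of 26593 genes), 6 passed without the low count filter (6.01% of 26593), and 14 of the 39 passed in the negative binomial model of the study's methods (25.9% of 18311), all 14 higher. Without line 8 Dex replicate 2, which leaves the library that stood apart as the sole Dex plate of its line and assumes that it varies like the other plates, 8 passed (25.4% of 18965 genes): 7 higher and LHCB1.4 lower. Without line 8 Dex replicate 1 none passed, and 36 of 39 were above 0. PORA had a log2 fold change of 1.26 ± 0.37 in GR-WRI3 (adjusted p = 0.301), with 31.3 to 459 CPM under mock and 26.9 to 1497 under Dex, and root markers were at 649.7 to 1412 CPM under mock and 626 to 2785 under Dex. Their part in these values was not tested.

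In GR-CHA19 most genes had lower fitted values under Dex, while the 6 above 0 were LHCB1.2, LHCB2.3, LHCB6, PSAH2, PSBQ1 and PSBS. PSBS was at 43.6 to 112 CPM (median 72.3) under mock and 57.5 to 279 (median 101) under Dex, with a log2 fold change of 0.56 ± 0.24 (edgeR adjusted p = 0.354). PSBQ1 was at 65.5 to 124 CPM (median 100.1) under mock and 70.5 to 303 (median 135) under Dex, with 0.54 ± 0.22 (edgeR adjusted p = 0.347). LHCB1.2 was at 27.5 to 159 CPM (median 113) under mock and 52.9 to 312 (median 109.6) under Dex, with 0.40 ± 0.19 (edgeR adjusted p = 0.358). All 3 overlap between groups. PSBQ1 and PSBS were above 0 in all 4 lines, at 0.09, 0.77, 0.31 and 0.99 and at 0.44, 0.91, 0.21 and 0.66 in lines 5, 7, 8 and 9, and LHCB1.2 in 3 of 4. The lowest fitted value was that of LHCB1.4, at −0.51 ± 0.55.

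The GR-CHA19 values rest in part on line 7 Dex. Without replicate 1, which stood apart, the median over the 39 was −0.12, none passed, and PSBQ1 and PSBS had log2 fold changes of 0.30 and 0.25. Without replicate 2, 31 of 39 passed (45.1% of 19269 genes), 3 of them higher (LHCB6, PSBS and PSBQ1). In the negative binomial model of the study, 8 of 39 passed (31.3% of 18272), with LHCB6, LHCB1.2, PSBS, LHCB2.3 and PSBQ1 higher and PSBY, PSBR and PSBW lower. PORA had a log2 fold change of 2.38 ± 0.65 (adjusted p = 0.347), with 32.7 to 101 CPM under mock and 29.3 to 1932 under Dex, and root markers were at 707 to 1006 CPM and 698 to 4034. Their part in these values was not tested.

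In GR-ENAP1 the fold changes were all above 0 and none had an unadjusted p under 0.05. The 3 genes with the lowest p were PSBQ1, at 0.27 ± 0.18, PSAH2, at 0.37 ± 0.27, and LHCB6, at 0.33 ± 0.27 (edgeR adjusted p = 1 for each). Line 1 mock replicate 1, on which the size of the median depended, stood apart. Line 2 Dex replicate 1 stood apart as well, and the median of line 2 alone was −0.38. The negative binomial model called none of the 39 (1.58% of 18506 genes).

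In GR-LBD16, PSBS, PSBQ1 and PSAH2 were the 3 genes not above 0. In lines 11, 12, 3 and 8, PSAH2 was at −0.31, −0.04, 0.32 and 0.02, and PSBQ1 at −0.31, −0.08, 0.23 and −0.14, so both had either sign. Without line 3 mock replicate 1 most of the 39 lay below 0, as given above. In GR-CHA19, GR-ENAP1 and GR-WRI3 the same 3 were above 0, and the test between fusions given below called none of them. The 3 lowest p values were those of LHCB4.3, at 0.21 (edgeR adjusted p = 0.686), LHCB2.2, at 0.30 (0.823), and PSBS, at −0.22 (0.83). The direction of the whole set turned on line 3 mock, where replicate 1 is the library that stood apart: without replicate 2, 38 of 39 passed, all higher (44.5% of 19442 genes). The negative binomial model called 3, LHCB1.2, LHCB2.3 and PSBQ2 (13.0% of 18706).

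Lines of the same fusion had fitted Dex values of opposite sign. In GR-CHA19 the median log2 fold change over the 39 was 0.25 in line 5 and 0.13 in line 9, with 38 and 27 genes higher, and −0.73 in line 7 and −0.49 in line 8, with 4 and 6 higher. In GR-ENAP1 it was 0.79, 0.33 and 0.41 in lines 1, 4 and 5 and −0.38 in line 2. In GR-LBD16 it was 0.68 and 0.23 in lines 3 and 12 and −0.12 and −0.19 in lines 8 and 11, and in GR-WRI3 0.36, 0.14 and 0.14 in lines 10, 17 and 21 and −0.29 in line 8. The line with the strongest value in GR-ENAP1 and GR-LBD16 and the lowest line of all but GR-LBD16 each hold a library that stood apart.

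The test of whether the Dex effect differed between lines called none of the 39 in any fusion, and no gene at all (0%). At an unadjusted p under 0.05 there were 9 of 39 for GR-CHA19 (2.31% of all genes), 7 for GR-WRI3 (2.65%), 0 for GR-ENAP1 (5.12%) and 0 for GR-LBD16 (2.38%). In GR-CHA19 the lowest p was that of LHCB2.3, with fold changes of 0.66, −0.73, −0.60 and 0.97 in lines 5, 7, 8 and 9 (range 1.70, edgeR adjusted p = 0.976), followed by PSAE1 and PSAG, each with a range of 0.99. In GR-WRI3 these were PSBO2, LHCB2.3 and PSAK, with ranges of 0.84, 1.17 and 0.90 (adjusted p = 0.973). In GR-ENAP1 they were LHCB4.3 (1.16, adjusted p = 0.774), PSBQ1 (0.87, 0.83) and LHCB5 (1.51, 0.852), and in GR-LBD16 LHCB4.3 (0.68, 0.968), PSBY (1.04, 0.968) and PSAD2 (1.09, 0.98). With the library that stood apart as the sole plate of its group, 33 of 39 passed in GR-CHA19 (35.2% of 19269 genes), 33 in GR-ENAP1 for line 1 mock (35.0% of 19153), 38 in GR-LBD16 (47.7% of 19442) and 3 in GR-WRI3 (LHCB1.4, LHCA1 and PSAN; 5.40% of 18965).

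A joint fit of all 64 libraries tested whether the Dex effect differed between the 4 fusions. Its p-values measured the spread between plates within lines, not that between lines of a fusion. None of the 39 passed at an adjusted (0% of 19541 genes) or an unadjusted p (14.0%). The lowest p values were those of PSBQ1, with a range of 0.66 between fusions (edgeR adjusted p = 0.518), PSBS, with 0.81 (0.557), and PSBR, with 0.67 (0.716). Without GR-LBD16 line 3 mock replicate 2, 34 of 39 passed (21.2% of 20084 genes).

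Genes that work with the photosystems, in 4 further lists, did not pass under Dex either, with 0 called in each list and fusion. Of all genes, 0.0273% were called in GR-WRI3 and 0% in the other fusions. An unadjusted p under 0.05 was reached by 14.0%, 1.81%, 6.31% and 15.5% of all genes in GR-CHA19, GR-ENAP1, GR-LBD16 and GR-WRI3. Of the 4 Rubisco small subunit genes, all 4 were above 0 in GR-CHA19, GR-ENAP1 and GR-WRI3, with medians of 0.52, 0.27 and 0.50, and all 4 below 0 in GR-LBD16, with a median of −0.10; an unadjusted p under 0.05 was reached by 2 in GR-CHA19 and 3 in GR-WRI3. The 8 photosystem subunits encoded in the plastid had medians of −0.39, 0.19, 0.19 and 0.37 in GR-CHA19, GR-ENAP1, GR-LBD16 and GR-WRI3, with 3, 0, 0 and 6 at that level. Poly-T capture recovers plastid transcripts poorly, so these reads may be a biased part of them. The 11 nuclear genes of electron transport and ATP synthase had medians of 0.07, 0.23, 0.05 and 0.14 in the same order (4, 1, 0 and 5 at that level), and the 6 genes for antenna protein targeting and the GLK regulators −0.12, 0.09, −0.003 and −0.04 (0, 0, 0 and 3). The 2 GLK genes, activators of photosystem genes, had log2 fold changes of −0.28 and −0.38 in GR-WRI3 and did not pass (edgeR adjusted p = 0.301 and 0.308).

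In the test between fusions under mock, 3 of 8 further antenna and photosystem genes passed (LHCA6, LHCB7 and PSB28), as did 3 of the 11 electron transport genes (FD1, LFNR2 and ATPD), 3 of the 6 targeting genes (ALB3, CPFTSY and CPSRP54) and 2 of the 4 Rubisco small subunit genes (RBCS2B and RBCS1B), but none of the 8 plastid-encoded subunits. In the same test 38.4% of all genes passed. Over 59 libraries the summed LHCB to PSB ratio was 1.58 to 3.04 with a median of 2.40, and the LHCA to PSA ratio 0.886 to 1.24. In GR-LBD16 line 3 mock replicate 1 they were 0.561 and 0.688, below all 59.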

How the data were processed

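Per the labels and the study's methods, the authors trimmed single reads of non-strand-specific libraries (FastQC 0.11.7, Trim Galore 0.6.0), aligned them with STAR 2.7.0f to TAIR10, and deposited raw read counts per gene for 2 sequencing runs of each of the 64 libraries, with 0 columns left unmapped to a sample. The 2 runs were summed, and CPM values scale counts to a total of 1000000 over all 32833 loci. The member loci were matched to RefSeq TAIR10.1 for exon lengths and upstream sequences (40 of 40), and no coordinates are in the count tables. The members and gene lists were chosen with earlier results of these data known.

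Genes passing filterByExpr were tested with edgeR 4.0.16 in R 4.3.3 (TMM, robust quasi-likelihood F-tests) and Benjamini-Hochberg adjustment over all genes tested, at 0.05. Each GR fusion was fitted on its 16 libraries with treatment, line and their interaction, the Dex effect being the mean over lines. Differences between fusions used line sums under mock, 16 in all, and a joint fit of 64 libraries tested differences in the Dex effect. A standard error is the log2 fold change divided by the square root of F, and a range is that between the highest and lowest fitted line or fusion. A plate of pooled seedlings is the replicate within a line. The p-values of the fits within a fusion and of the joint fit therefore measure the spread between plates, not that between lines. DESeq2 1.42.0, the study's negative binomial model (MASS 7.3.60.0.1), other scalings, no filter, an additive model, a replicate block and each library left out in turn were alternatives, and fits without the libraries that stood apart were chosen after seeing the data. Scripts were tested on simulated data.

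Named for levels were the 3 highest and 3 lowest genes per role, for each test every gene called if 10 or fewer and otherwise the 5 with the largest change, or the 3 with the lowest p if none was called, and for spread the 3 largest and 3 smallest SDs. Other genes of the set with an unadjusted p under 0.05, those called by an alternative, and those named in single libraries were chosen after their values were seen.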

Additional observations from a re-analysis of the deposited data

Results flagged for a closer look

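In the GR-LBD16 mock group of 8 libraries, line 3 replicate 1 lay far below the others in 3 summed levels. These were of 40 checked over all fusions, roles and treatments, where chance would mark about 1 separate group in 20. The 40 sums overlap and all 3 marks are of 1 library, so their number cannot be set against that rate. The 3 are not separate, since the sum of all genes contains the PSA and PSB genes. The LHCA and LHCB sums of this library, at 52.8 and 138 CPM, were not marked. All photosystem and antenna genes together were at 515 CPM in that library, and the nearest other library was at 21143 CPM. The PSA genes were at 76.8 CPM, with the nearest at 3307, and the PSB genes at 247 CPM, with the nearest at 5031.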

How the results depend on the processing

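The study's negative binomial model called more than edgeR under Dex: for GR-CHA19 8 photosystem genes and 5727 of all genes, for GR-ENAP1 292 of all, for GR-LBD16 3 and 2437, for GR-WRI3 14 and 4742. DESeq2 called 1 gene for GR-CHA19, 1 for GR-LBD16, and 28 for GR-WRI3, 1 of the latter a photosystem gene. In GR-WRI3, no filter gave 6 photosystem genes and 1599 in all, the additive model 8 and the joint fit 2 in all; the joint fit gave 2 in GR-LBD16. Without the filter, GR-WRI3 had 5 photosystem genes and 596 in all for line by treatment, and 7 and 825 between mock lines, where the replicate block left 0 photosystem genes. Between GR-ENAP1 mock lines, 9 genes passed without the libraries that stood apart. Without them the mock test between fusions called 10 photosystem genes, and the joint test 3 genes in all.

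Leaving out single libraries, the photosystem genes called under Dex numbered 0 to 31, 0 to 0, 0 to 38 and 0 to 8 for CHA19, ENAP1, LBD16 and WRI3 fusions, of 0 to 8691, 0 to 0, 0 to 8656 and 1 to 4816 genes in all. Their median log2 fold change was −0.345 to −0.115, 0.09 to 0.875, −0.097 to 1.631 and 0.048 to 0.129. Line by treatment gave 0 to 33, 0 to 33, 0 to 38 and 0 to 3, of 0 to 6785, 0 to 6712, 0 to 9270 and 0 to 1025. Mock lines gave 0 to 1, 0 to 35, 0 to 38 and 0 to 2, of 0 to 6, 0 to 8000, 3 to 11026 and 3 to 27. The mock test between fusions gave 0 to 9 of 4790 to 9060, and the joint test, run without each of 10 libraries and not for the others, 0 to 34 of 0 to 4256. PSBS under Dex in GR-LBD16 ran from −0.455 to 0.80, the sign reversing without line 3 mock replicate 2 (edgeR adjusted p = 4.93e-05). The cause of these shifts was not tested.

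Of 28 correlations per fusion between deviations of same-numbered plates, 2, 16, 8 and 4 were over 0.1 in GR-CHA19, GR-ENAP1, GR-LBD16 and GR-WRI3. Their medians were 0.005, 0.11, −0.035 and 0.008 in the same order. Same-numbered plates thus tended to shift together in GR-ENAP1 and showed no such tendency in the other fusions. In the mock test between fusions the block was fitted on single plates in place of line sums, and LHCB6 was then not called (edgeR adjusted p = 0.0749). That fit changed 2 things at once, and plates do not replicate a fusion. With the replicate block alone, LHCB1.2 was not called between GR-WRI3 lines (edgeR adjusted p = 0.0657).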
